A study of Gallus gallus with 6 samples.

Results

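The genes described here are the defensins AvBD1, AvBD4, AvBD6, AvBD7 and DEFB4A, the cathelicidins CATH1 and CATH2, and also LECT2 and LYG2. They were grouped as genes of heterophil granules and are called granule peptide genes below for short. A probe was counted as a member if its RefSeq accession led to one of these 9 symbols, which gave 22 probes of the 11935 that matched any gene. All 9 genes were measured, among 4859 named genes in all. They were chosen by measured values, namely their signal levels and their joint variation over these same 6 libraries. Their levels, their order over libraries and their likeness to each other are therefore given as a description, with no test.

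Blood leukocytes of Gallus gallus aged 1 to 2 months were profiled on 6 arrays with 1 dye, 3 from samples labelled female and 3 from samples labelled male. Wing-vein blood had been layered on a Ficoll-Paque gradient, and the cells at the interface were taken. No treatment or genotype is given for any of the 6 samples, and the strain is not given either. The series title speaks of transgenic chickens, but no label marks a sample as transgenic. The submitters set out to compare expression between males and females. The labels do not say whether each sample came from a separate bird, so p-values measure only the spread between these samples, and the number of arrays limits the precision. Over the arrays, 79.0% to 83.1% of the 43803 non-control spots were well above background and 0 were saturated. Each label had its own slide, so the effect of slide and that of label cannot be told apart. On both slides, samples 1, 2 and 3 lay at positions 1, 2 and 4, so sample number and position cannot be told apart either. The W-chromosome gene HINTW read 6.61, 6.47 and 4.65 in female-labelled samples 1, 2 and 3 and 4.58, 4.48 and 6.99 in male-labelled samples 1, 2 and 3 (log2). The libraries labelled female 3 and male 3 thus went against their labels. The label differences of the 9 genes and of the lists of other heterophil and granule genes are given with and without them.

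Heterophils are the avian counterpart of mammalian neutrophils. They lack myeloperoxidase and kill microbes largely with peptides and enzymes stored in granules. Beta-defensins are short, positively charged, disulfide-bonded peptides that damage microbial membranes, and cathelicidins are made as longer precursors from which a membrane-active peptide is cut. In mammals, granule protein genes of neutrophils are transcribed mainly in precursors in the bone marrow. A density gradient interface collects mostly lymphocytes, monocytes and thrombocytes, while granulocytes are denser.

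All values below are log2 of the processed signal less the array's 75th percentile, so that 0 stands for that percentile. Each gene is given by its brightest probe unless another is named. Levels are compared between libraries for the same probe, and not between genes, because probes differ in how brightly they hybridise.

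The genes moved as a block over the 6 libraries, with the largest signal in the library labelled female 3 and the smallest in that labelled male 2. The mean of the 9 genes was 1.85, 0.32 and 4.15 in female-labelled samples 1, 2 and 3 and 1.73, -0.94 and 3.67 in male-labelled samples 1, 2 and 3. Within both labels sample 3 was thus highest and sample 2 lowest. Both slides thus had the same order at the same positions, with no steady rise along positions 1, 2 and 4. Any effect of position was not tested. The span from the lowest to the highest library was 5.09 log2 for that mean and ran from 4.06 for CATH1 to 5.82 for AvBD6, or 16.7-fold to 56.4-fold. The median span of all named genes was 0.60 log2. In this bulk RNA, fewer cells of a type and less RNA per cell cannot be told apart.

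**Figure D1:**
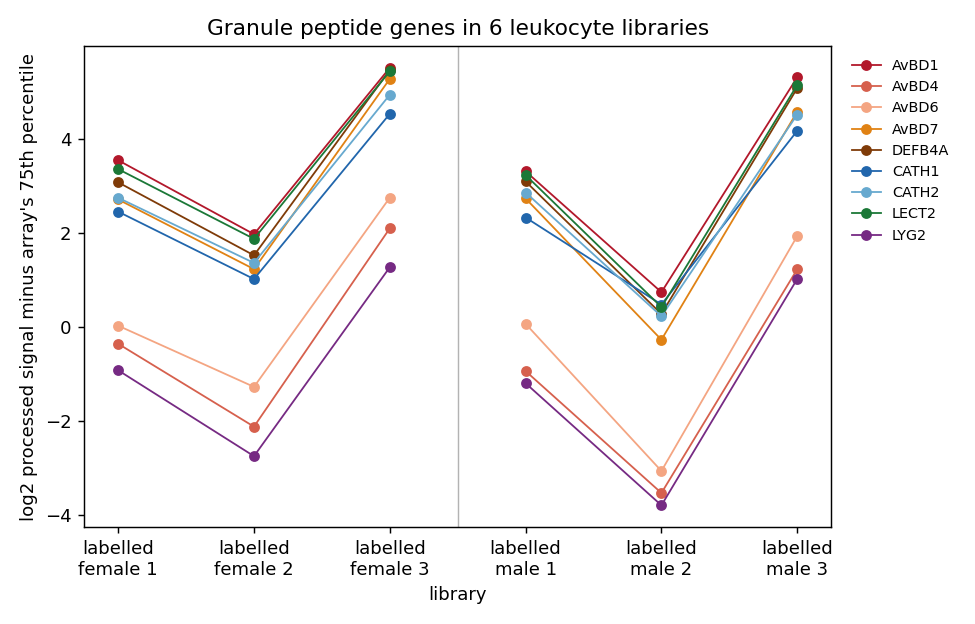
Log2 processed signal, less the array's 75th percentile, of the 9 granule peptide genes (y axis) in each of the 6 libraries (x axis), 1 point per gene and library; lines only join the points of a gene within a label and stand for no order of the samples. Every gene is highest in the library labelled female 3, second highest in that labelled male 3 and lowest in that labelled male 2.

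Among the defensins, AvBD1, a peptide first purified from heterophil granules, read 3.55, 1.98 and 5.52 in female-labelled samples 1, 2 and 3 and 3.32, 0.74 and 5.32 in male-labelled samples 1, 2 and 3. On the scanner's own scale its processed signal ran from 1517 in the library labelled male 2 to 40028 in that labelled female 3, a span of 27.4-fold after scaling. The libraries labelled female 3 and male 3 lay far above the other 4, and the 2 labels overlapped.

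DEFB4A, listed with the synonym AvBD2 and also known as a heterophil granule peptide, read 3.08, 1.53 and 5.47 in the female-labelled samples, against 3.10, 0.28 and 5.09 in the male-labelled ones. AvBD7, a defensin known from bone marrow and heterophils, read 2.72, 1.24 and 5.28 in the female-labelled samples, against 2.74, -0.27 and 4.58 in the male-labelled ones. For both genes the libraries labelled female 1 and male 1 differed by only 0.02 log2, while that labelled male 2 lay clearly under that labelled female 2.

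AvBD6, a close paralog of AvBD7, read 0.03, -1.27 and 2.76 in the female-labelled samples, against 0.07, -3.06 and 1.94 in the male-labelled ones. AvBD4, a further defensin of the same cluster, read -0.35, -2.12 and 2.10 in the female-labelled samples, against -0.93, -3.53 and 1.23 in the male-labelled ones. On their brightest probes these genes had the widest spans, 56.4-fold for AvBD6 and 49.6-fold for AvBD4, and their lowest library again was that labelled male 2. For AvBD4 this rank rested on the probe: its second probe spanned 28.1-fold, less than any probe of AvBD7, at 46.9-fold to 52.3-fold. The second probe of AvBD6 spanned 65.2-fold. How far probes of related defensins bind each other's RNA was not tested.

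Among the cathelicidins, CATH2, a peptide precursor stored in heterophil granules, read 2.75, 1.37 and 4.95 in the female-labelled samples, against 2.87, 0.23 and 4.52 in the male-labelled ones. CATH1, also called CATHL1, read 2.46, 1.02 and 4.54 in the female-labelled samples, against 2.33, 0.48 and 4.18 in the male-labelled ones. CATH1 had the narrowest span of the 9 genes. Its probes disagreed in size: the second read 2.24, 1.21 and 3.85 in the female-labelled samples, against 2.28, 1.46 and 3.53 in the male-labelled ones, a span of 2.64 log2 or 6.25-fold against 16.7-fold. On that probe the library labelled female 2 was lowest, in place of that labelled male 2.

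LECT2, listed with the synonym MIM1 and known in chicken as a granule protein of promyelocytes switched on by the transcription factor Myb, read 3.36, 1.88 and 5.45 in the female-labelled samples, against 3.24, 0.43 and 5.15 in the male-labelled ones. LYG2, a goose-type lysozyme that cuts bacterial cell walls, read -0.92, -2.75 and 1.28 in the female-labelled samples, against -1.19, -3.79 and 1.03 in the male-labelled ones. LECT2 is no defensin or cathelicidin and lies on chromosome 13, and LYG2 lies on chromosome 1. Their order of libraries was that of AvBD1, with spans of 32.4-fold and 33.5-fold. With normexp background correction the span of LYG2 was 4.01 log2, against 5.07 in the main processing. That of LECT2 was 4.94 against 5.02.

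Over probes, 22 of 22 were highest in the library labelled female 3 and second highest in that labelled male 3, and 21 of 22 were lowest in that labelled male 2. All 22 were well above background in all 6 libraries. Under each other scaling, background correction, probe filter and probe summary, and in the deposited matrix, all 9 genes kept the library labelled female 3 as highest and that labelled male 2 as lowest. The libraries labelled female 3 and male 3 stood at least 1.59 log2 above those labelled female 1 and male 1 on every gene, these stood at least 1.18 above that labelled female 2, and that labelled female 2 at least 0.54 above that labelled male 2. The libraries labelled female 1 and male 1 were not separated: 4 of the 9 genes were higher in the latter, and 2 to 5 of them under other processing.

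Pairs of the 9 genes correlated with a Pearson r of 0.983 to 1.00 over the 6 libraries (median 0.996, 36 pairs), and with a Spearman rho of 0.943 to 1.00. Without the libraries farthest from the median, those labelled female 3 and male 2, r was 0.979 to 1.00. With female 3 and male 3 left out instead it was 0.956 to 1.00. These points share libraries and scaling, and the genes were chosen for this likeness. No p is given for it.

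Within this common course, AvBD4, AvBD6 and AvBD7 differed more than the other genes between the pair of libraries in which all were high. On the 7 probes of these 3 genes, the male 3 minus female 3 difference was -0.99 to -0.63 log2. On the 15 probes of the other 6 genes it was -0.44 to -0.12 log2. The probes of the 2 sets did not overlap. Between the libraries labelled female 2 and male 2 the sets did overlap, with male minus female differences of -1.79 to -0.98 for the former and -1.45 to 0.25 for the latter. These sets were formed after the values were seen, so no test is given.

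The rank of each probe's signal among the named genes of the same array needs no scaling between arrays. It is read here only as a shift of 1 probe between libraries, since the brightness of different probes does not rank the levels of their genes. The AvBD1 probe stood above 96.4% of named genes in the library labelled female 3, 88.5% in that labelled female 1 and 54.2% in that labelled male 2. For LECT2 the share was 96.2% in that labelled female 3 and 50.2% in that labelled male 2. For LYG2 it was 61.9% and 15.1% in the same libraries. Of the 4859 named genes, 31 (0.638%) spanned at least as much as CATH1, and the 9 genes described here are among those 31.

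Between the labelled sexes, none of the 9 genes passed the test. With limma's moderated test over all 29509 features, 0 of 9 had a Benjamini-Hochberg adjusted p under 0.05, against 0% of all features (0 of 29509). At an unadjusted p under 0.05 it was 0 of 9, against 3.81% of all features. No gene of the 9 had male-labelled and female-labelled libraries that did not overlap, against 8.01% of all features. AvBD1 averaged 3.68 ± 1.77 in the libraries labelled female and 3.13 ± 2.29 in those labelled male (SD, n = 3 each), which differ by -0.56 log2 (male minus female, SE 1.34). The differences of the 9 genes ran from -0.95 log2 for AvBD4 (SE 1.48) to -0.34 for CATH1 (SE 1.19), with a median of -0.56 against -0.01 over all features. The limma adjusted p-values of the 9 were 0.948 to 0.968.

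The spread between libraries of 1 label exceeded each of these differences. The SE of the 9 genes was 1.19 to 1.51 log2, against a median SE of 0.20 over all features. The sign rested on single libraries: without the library labelled male 2, the 9 differences were 0.27 to 0.73 log2, and without that labelled female 3 they were 0.16 to 0.59. With the samples labelled female 3 and male 3 left out, the differences ran from -0.996 for AvBD4 to -0.33 for CATH1, and 0 of 9 passed limma's adjusted threshold, against 0.288% of all features.

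**Figure D2:**
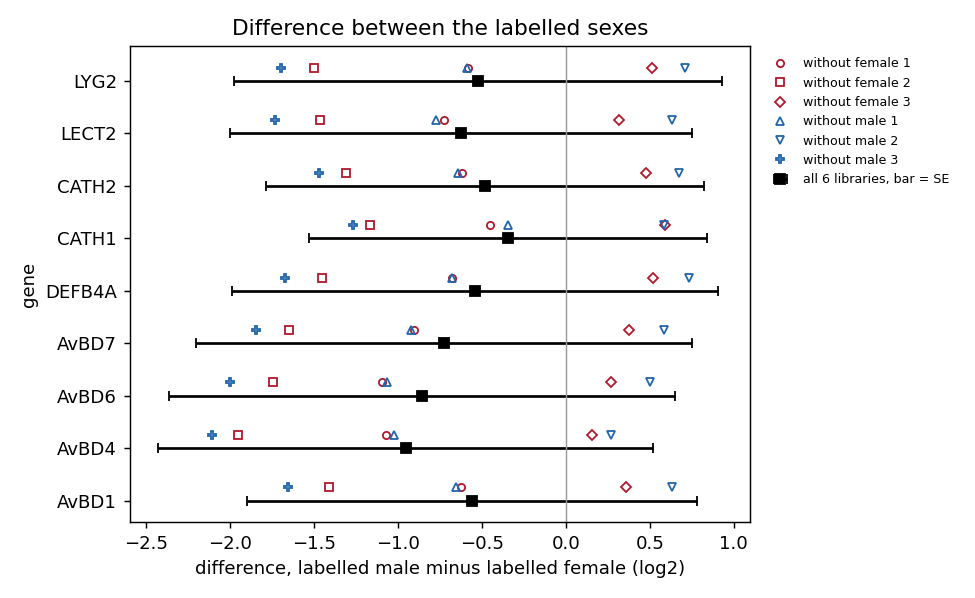
Difference in log2 signal between libraries labelled male and female (x axis) for each of the 9 genes (y axis). Black squares use all 6 libraries with the SE from limma as a bar. Open marks leave out 1 library each, red for a library labelled female and blue for a library labelled male. All 9 black bars cross 0, and the difference is above 0 without the library labelled female 3 or that labelled male 2.

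The defensin genes lie in 1 cluster on chromosome 3, and the wide span covered only a stretch of it. In the gene order of the assembly GRCg7b, AvBD7, AvBD6, DEFB4A, AvBD1, AvBD3, AvBD5 and AvBD4 follow each other. The genes AvBD3 and AvBD5, which lie between AvBD1 and AvBD4, spanned 2.28 and 2.71 log2. AvBD5 read -3.19, -4.14 and -1.73 in the female-labelled samples, against -3.56, -4.44 and -2.05 in the male-labelled ones, the same order as AvBD1. AvBD3 read -6.19, -6.52 and -4.74 in the female-labelled samples, against -6.97, -5.55 and -4.69 in the male-labelled ones, and was well above background in 5 of them. For AvBD3 the library labelled male 1 was lowest.

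AvBD8, the neighbour of AvBD7 on the other side, read between -3.18 and -2.81 in the 6 libraries, a span of 0.38 log2 or 1.30-fold. The next gene, AvBD9, spanned 0.48 log2. AvBD10 and AvBD13, named here to complete the cluster and not by the rule for named genes, spanned 0.69 and 0.55 log2. Over the libraries the probes averaged -3.04 for AvBD8, -4.81 for AvBD9, -1.65 for AvBD10 and -2.51 for AvBD13. How far low signal narrowed these spans was not tested. Beyond AvBD4 the nearest measured genes were PAQR8, with a span of 0.47 log2, and the replication factor gene MCM3, with 0.77. Both probes of AvBD11 were too dim to be kept, and no probe was matched to AvBD12 or AvBD14.

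On chromosome 2, CATHB1, a cathelicidin known from the bursa, lies between CATH2 and CATH1. It read -5.09, -5.04 and -3.91 in the female-labelled samples, against -4.49, -4.47 and -4.60 in the male-labelled ones, a span of 1.18 log2 against 4.71 for CATH2 and 4.06 for CATH1. The library labelled male 3, second highest for CATH1 and CATH2, was among the 3 lowest for CATHB1. It lay only a little under those labelled male 1 and male 2 there. The CATHB1 probe averaged -4.60 over the libraries, and how far low signal narrowed its span was not tested. The nearest measured genes outside the cluster, KLHL18 and CCM2, spanned 0.50 and 0.39 log2. Next to LECT2, TGFBI spanned 1.25 and FBXL21 0.40 log2, with the TGFBI maximum of 1.32 in the library labelled male 2, where LECT2 was lowest. The nearest measured genes around LYG2, MGAT4A and EIF5B, spanned 0.26 and 0.21 log2.

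**Figure D3:**
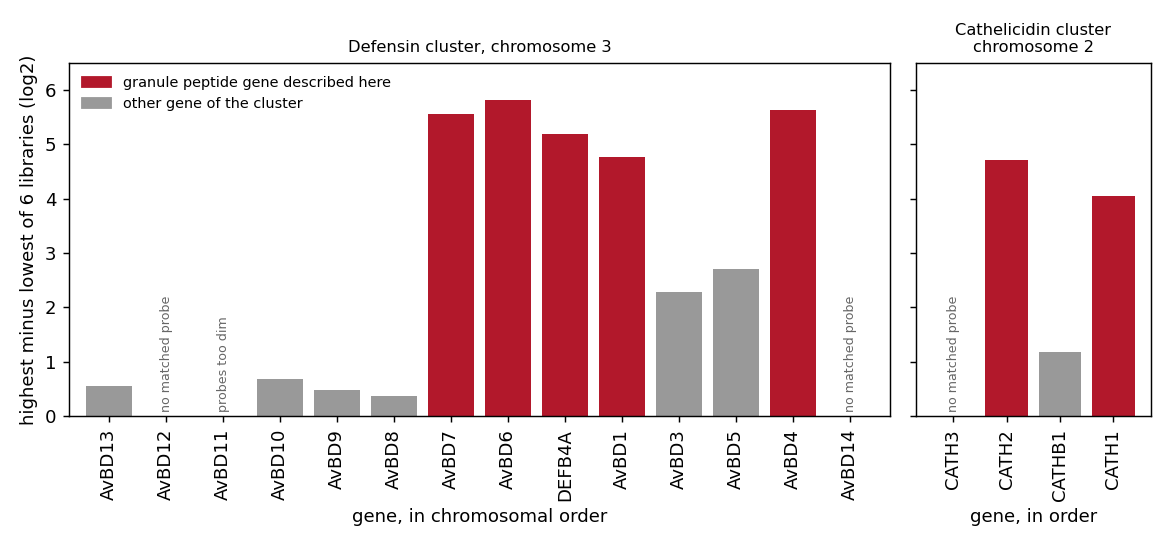
Span of the log2 signal from the lowest to the highest of the 6 libraries (y axis, bars from 0) for each gene of the defensin cluster and the cathelicidin cluster, in chromosomal order (x axis); red bars are the genes described here and grey bars the other genes. The red bars reach 4.06 to 5.82 log2, while AvBD8, beside AvBD7, reaches 0.38.

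Other genes of heterophils and of the granule system are given by list, with values for those of widest span. The lists named below were drawn up with earlier results of these data known. Of the list of other antimicrobial peptides, 9 of 13 were measured, 0 passed in either direction in limma, and the median male minus female difference was 0.07 log2, with a median span of 0.79. That median had no settled sign: it was -0.04 with female 3 and male 3 left out, -0.15 to 0.09 with single samples left out (lowest without male 3), and -0.01 under either other filter on dim probes. The widest span of the list, 2.99 log2, was that of GNLY, an NK-lysin of cytotoxic lymphocytes, which read 3.73, 4.94 and 4.64 in the female-labelled samples, against 5.43, 6.72 and 4.55 in the male-labelled ones. GNLY was thus highest in the library where the defensins were lowest. The liver peptide gene LEAP2 spanned 0.79 log2.

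Of the other granule and secreted proteins, 8 of 16 were measured, 0 passed in limma in either direction, and the median difference was -0.15 log2, with a median span of 1.53. The difference was also -0.15 with female 3 and male 3 left out, and -0.15 to -0.06 with single samples left out (-0.06 without male 2 or male 3, -0.08 without female 1). The list's mean log2 level was 2.25, 2.02 and 2.47 in the female-labelled samples, against 1.99, 2.02 and 2.48 in the male-labelled ones. By that measure the list was highest in the same 2 libraries as the granule peptide genes. Its summed scaled signal was instead highest in the library labelled male 2, at 312, against 303 in that labelled female 3 and 238 in that labelled male 3. Of its 8 genes, 3 were lowest in the library labelled male 2, against 13.6% of named genes. LYZ, the chicken-type lysozyme, came closest: it read 0.99, 0.46 and 2.30 in the female-labelled samples, against 0.47, -0.05 and 2.31 in the male-labelled ones, a span of 5.13-fold. EXFABP, a siderophore-binding lipocalin of heterophils, read 6.12, 5.83 and 7.41 in the female-labelled samples, against 6.30, 7.41 and 7.01 in the male-labelled ones. Its values in the libraries labelled female 3 and male 2 were thus level, while AvBD1 differed 27.4-fold between the same libraries. The gelatinase gene MMP9 was highest in the library labelled male 3 at -1.40 and lowest in that labelled male 2 at -4.12, but read -2.90 in that labelled female 3. The annexin gene ANXA1 was highest in the library labelled female 3 at 5.69 and lowest in that labelled female 2 at 3.80. It read 5.36 in that labelled male 2. The serpin gene SERPINB10B was highest in the library labelled female 2, at -0.56, and lowest in that labelled male 2, at -2.04.

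The NADPH oxidase makes superoxide in phagocytes, and 4 of the 6 listed subunit genes were measured. None of the 4 passed in limma, 3 were higher and 1 was lower in the male-labelled mean, and the median difference was 0.26 log2. It was 0.41 with female 3 and male 3 left out, and 0.18 to 0.37 with single samples left out. CYBB, the catalytic subunit, read -1.32, -1.34 and -0.38 in the female-labelled samples, against -0.95, -0.33 and -0.49 in the male-labelled ones. It was highest in the library labelled male 2, where the granule peptide genes were lowest. It read nearly as high in those labelled female 3 and male 3, where the granule peptide genes were highest. NCF4, NCF1C (listed as NCF1) and RAC2 spanned 0.64, 0.56 and 0.49 log2.

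Of 9 granulocyte receptor genes, 4 were measured and 0 passed in limma, with a median difference of 0.26 log2 and a median span of 1.15. The difference was 0.48 with female 3 and male 3 left out; with single samples left out it ran from 0.04 without female 2 to 0.52 without female 3, and was 0.12 without male 2 and 0.13 without female 1. Of the 4 genes, 3 were highest in the library labelled female 3 or that labelled male 3, against 38.7% of named genes. These 3, CSF3R, TLR4 and CXCR1, all had their maximum in that labelled female 3. The library labelled male 3 read 1.17 for TLR4, under 1.33 in male 1 and 1.44 in male 2. For CXCR1 it read -5.80, with only that labelled male 2 lower, at -5.92. CSF3R, the receptor for the granulocyte growth factor G-CSF, read 0.59, 0.45 and 1.83 in the female-labelled samples, against 0.70, 1.49 and 1.47 in the male-labelled ones. The libraries labelled male 2 and male 3 thus differed by little on CSF3R, where AvBD1 read 0.74 and 5.32. The endotoxin receptor TLR4 spanned 1.36, the chemokine receptor CXCR1 0.93 and the integrin chain ITGB2 0.75 log2, and ITGB2 was highest in the library labelled male 2.

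Among myeloid transcription factors, 7 of 11 were measured and 0 passed in limma, with a median difference of 0.23 log2 and a median span of 0.93. The difference was 0.35 with female 3 and male 3 left out, and 0.03 to 0.31 with single samples left out, lowest without female 2. MYB, the activator known for MIM1, read -3.94, -4.07 and -4.04 in the female-labelled samples, against -4.17, -4.87 and -4.10 in the male-labelled ones, lowest where LECT2 was lowest and nearly level in the other 5. CEBPA, a factor of granulocyte precursors, read -1.91, -2.22 and -1.06 in the female-labelled samples, against -1.72, -1.70 and -1.38 in the male-labelled ones. SPI1, which encodes PU.1, was highest in the library labelled male 2 at 0.55 and lowest in that labelled female 2 at -0.48. It read nearly as high, 0.51, in each of those labelled female 3 and male 3. IRF8 and CEBPG spanned 0.93 and 0.77 log2. Of the 5 genes fixed as markers of heterophils beside the members, 4 were measured: LYZ held the members' 2 highest libraries and their lowest one, MMP9 the lowest one and male 3 among the highest, and EXFABP and CSF3R put the library labelled male 2 second and that labelled female 3 first. S100A9, listed under S100A12, had no matched probe.

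**Figure D4:**
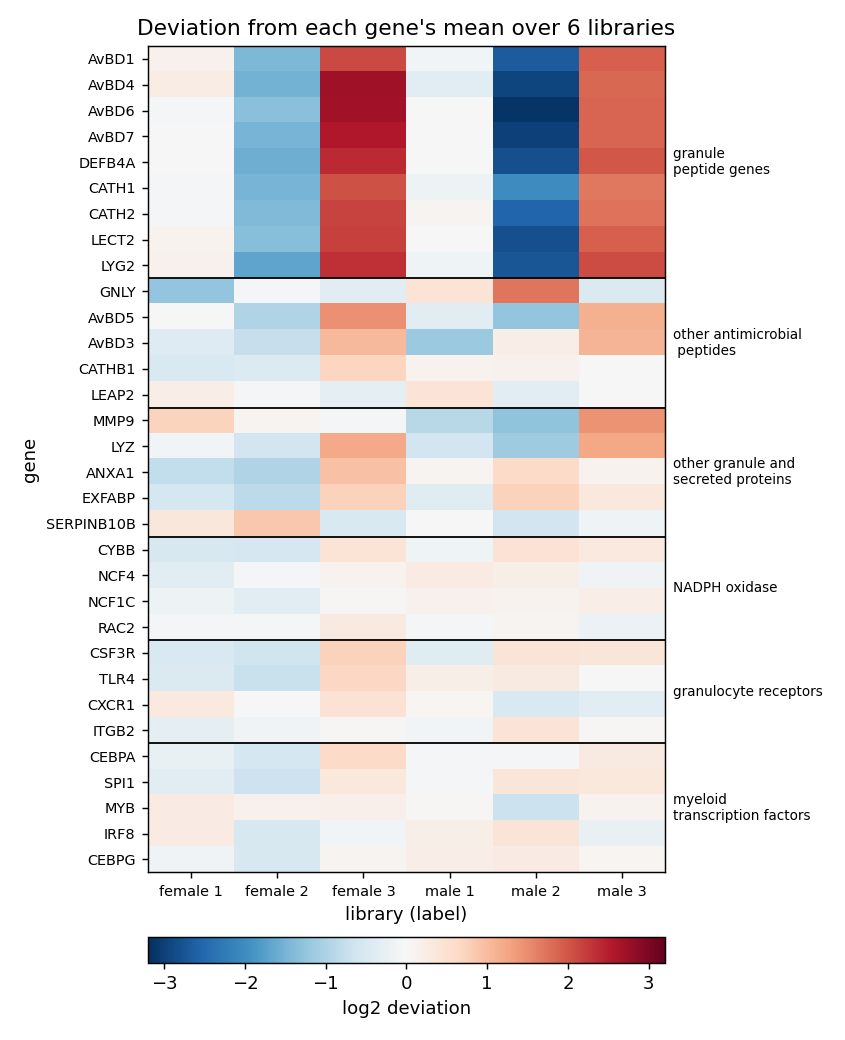
Log2 deviation of each gene (rows) from its own mean over the 6 libraries (columns), for the 9 granule peptide genes and, below the lines, up to 5 genes with the widest span from each of 5 other lists; red is above and blue below the gene's mean. The upper block runs from -3.14 to 2.70, while CYBB, CSF3R, ITGB2 and SPI1 are above their mean in the library labelled male 2 as well as in that labelled female 3.

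Markers of other blood cells were measured beside these genes. Their sums are grouped by label, with the libraries labelled female 3 and male 3 kept in. The summed scaled signal of the 6 T cell markers measured of 8 was 284 to 397 in the libraries labelled female and 325 to 377 in those labelled male, and that of the 4 thrombocyte markers of 8 was 254 to 297 and 212 to 290. For the 6 B cell markers of 8 it was 47.6 to 85.3 and 76.4 to 86.8, and for the 5 monocyte markers of 9 it was 12.9 to 14.8 and 10.0 to 11.2. The monocyte sum was mostly CD36, which read 3.56, 3.39 and 2.87 in the female-labelled samples, against 2.77, 2.75 and 2.44 in the male-labelled ones. The mean log2 level of the 5 monocyte markers, in which each gene counts alike, was -2.03, -2.33 and -1.60 in the female-labelled samples, against -2.20, -2.17 and -1.83 in the male-labelled ones. By that measure the libraries labelled female 3 and male 3 were highest, as for the granule peptide genes. TREM2 read -2.32 and -2.62 in these libraries and -4.03 to -3.56 in the other 4. The 7 erythroid markers of 11 summed to 938 to 1150 in the libraries labelled female and to 1108, 589 and 1317 in those labelled male 1, 2 and 3. The library labelled male 2 was thus lowest for erythroid markers as well as for the granule peptide genes. Of the 7 erythroid markers, 6 were at their lowest there, against 13.6% of named genes. At the high end the 2 sums differed: that labelled female 3, highest for the granule peptide genes, had the second lowest erythroid sum. The highest erythroid sum was that of the library labelled male 3. Gene by gene, 6 of the 7 erythroid markers were highest in the library labelled female 3 or that labelled male 3, against 38.7% of named genes. Of these only RHAG was highest in that labelled female 3. The sum of the 9 granule peptide genes was 51.6, 18.3 and 240 in the female-labelled samples, against 49.0, 7.92 and 183 in the male-labelled ones. Every listed marker that was measured was well above background in all 6 libraries, apart from MARCO in 5. The part of these cell types in the variation of the granule peptide genes was not tested.

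The likeness of other named genes was measured as the root mean square difference between a gene's centred values and the mean centred values of the 9 genes over the 6 libraries. The 9 genes themselves lay at 0.08 to 0.34 log2, and a flat gene would lie at 1.77. Of the 4850 other named genes, LOC425137, listed with the synonym AKR1B1L, came nearest at 0.68, reading 0.38, -0.72 and 1.34 in the female-labelled samples, against 0.18, -1.86 and 1.30 in the male-labelled ones. AvBD5 followed at 0.81, HPGDS, a prostaglandin D synthase of blood cells, at 0.89, and LYZ at 0.94. TMEM178B lay at 1.00 and the phospholipase-family gene PNPLA4 at 1.07. The 9 genes were chosen for their joint variation and define the course they are measured against, so their own small distances follow from that choice.

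HPGDS departed from the 9 genes in its highest library: it read -1.67, -2.43 and -1.02 in the female-labelled samples, against -0.79, -3.86 and 0.69 in the male-labelled ones. None of these 6 genes passed between the labelled sexes (limma adjusted p from 0.948 to 0.987). The nearest to the opposite course were the lectin gene BLEC2 at 1.00, CPA6 at 1.00 (well above background in 4 libraries) and CCLL4 at 1.06. BLEC2 read -3.28, -3.16 and -4.33 in the female-labelled samples, against -3.45, -0.42 and -3.49 in the male-labelled ones, so that its course rested mostly on the library labelled male 2.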

How the data were processed

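The deposited scanner tables give an intensity for every spot. Per the file headers the software was Feature Extraction 11.5.1.1, and its processed signal is background-subtracted and detrended within an array and not scaled between arrays. Flags for spots well above background, saturated or outlying come from the same tables. The authors' deposited matrix held that intensity times 1 factor per array, 2.10 to 2.31, linear and not centred, with column medians of 286 to 318; what it was scaled to is not stated in the labels or headers. The array's grid names the build galGal3.

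Log2 of the processed signal was taken less each array's 75th percentile, leaving out 3 to 12 outlier spots. Spots of a probe were averaged. Probes well above background on at least 3 arrays were kept, 35141 of 43603, and a gene was its brightest kept probe. Names came from unversioned RefSeq accessions in a gene table of the assembly GRCg7b; as the builds differ, positions are left out. It matched 11935 probes to 5382 genes. No sequences are printed.

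The labels were compared with limma 3.58.1 in R 4.3.3 (two-sided, Benjamini-Hochberg over 29509 features). On simulated data for this comparison, 18% of 2-fold and 70% of 4-fold changes were recovered. The members and lists were chosen with earlier results of these data known. List names were matched by symbol, or by synonym for S100A9, NCF1 and SERPINB10. Named genes were the members, up to 5 genes per list with the widest span, the 6 nearest and 3 most opposite genes by course, and up to 2 measured neighbours per side, of which not all are given. Tables used Python 3.11.15, pandas 2.3.3 and matplotlib 3.10.9.
Alternatives were median and quantile scaling, normexp on the median signals, the deposited matrix, a stricter and no filter on dim probes, the mean of a gene's probes, the replicate number as a block and each library left out in turn; leaving out the libraries labelled female 3 and male 3 together was added after the data were seen.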

Additional observations from a re-analysis of the deposited data

How the results depend on the processing

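Of the 9 genes, 0 passed between the labels under every alternative run. Over all features, 0 passed, with 1 after quantile normalization, 0 to 2 when single libraries were left out (2 without that labelled male 1), and 85 with female 3 and male 3 dropped (chosen after the data were seen). The median difference of the 9 genes was -0.74 to -0.51 log2 under the other alternatives and -1.70 to 0.63 when single libraries were left out. The differences reversed without the library labelled female 3 or male 2, and over all left-out libraries ran from -1.65 to 0.63 for AvBD1, -2.11 to 0.27 for AvBD4, -2.001 to 0.50 for AvBD6, -1.84 to 0.58 for AvBD7, -1.67 to 0.73 for DEFB4A, -1.27 to 0.59 for CATH1, -1.47 to 0.67 for CATH2, -1.73 to 0.63 for LECT2 and -1.70 to 0.71 for LYG2; fewer and other samples enter each of these fits. The span of the members' mean was 3.83 to 5.09 log2 with single libraries left out and 2.80 once female 3 and male 3 were dropped. It was 4.76 log2 with normexp background correction, under which the order of the genes by span changed.

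Over all features the replicate number did not pair the samples: the deviations of same-numbered libraries from their label's mean correlated at 0.01, -0.11 and -0.21. The mean of the 9 genes did have the same order by number under both labels. In the female-labelled and male-labelled library it was 4.15 and 3.67 for number 3 and 1.85 and 1.73 for number 1. For number 2 it was 0.32 and -0.94. With the replicate block the median difference of the 9 genes stayed at -0.56 log2, with 0 of 9 and 0 of all features past the threshold. Before adjustment, 1 of the 9, AvBD4, was under 0.05, against 1160 of all 29509 features. Its limma adjusted p was 0.963. The number of arrays limits what could be called: at 3 against 3, 70% of simulated 4-fold changes were recovered over features drawn from all. The 9 genes spread more than most, with an SE of 1.19 to 1.51 log2 against a median of 0.20, so that share does not apply to them.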

Other observations

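Probes with no gene name here held the course of the 9 granule peptide genes as well. Of 24650 such probes, 2 lay within the 0.34 log2 that separated the farthest of the 9 genes from their mean course, and 3 lay nearer than LOC425137. A_87_P128803 lay at 0.10 log2, with values of 1.32, -0.32 and 3.58 in female-labelled samples 1, 2 and 3 and 1.18, -1.27 and 3.23 in male-labelled samples 1, 2 and 3. A_87_P100611 lay at 0.17 log2 and spanned 5.65 log2, with 5.15 in the library labelled female 3 and -0.51 in that labelled male 2. A_87_P000199, at 0.49 log2, spanned 6.41 log2, more than any of the 9 genes on its brightest probe. Its lowest value was -6.35, in the library labelled male 2, and how far low signal widened its span was not tested. All 3 probes were well above background in all 6 libraries. They were chosen after their values were seen, and the genes they measure are not named here.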
